A study of Drosophila melanogaster with 2 samples.

Results

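Distal intergenic summits are the points of strongest Eyeless signal that lay far from any protein-coding gene start. They were taken from the authors' optimal list, the regions that passed their irreproducible discovery rate (IDR) threshold, on the main chromosome arms of the dm6 genome. A summit was kept when it lay inside no protein-coding gene, more than 500 bp from the transcription start site (TSS) of a gene of any class, and more than 5000 bp from the nearest protein-coding TSS. In all, 632 of 6835 optimal summits (9.25%) met this rule. Within the optimal list the rule used position alone, so sequence was free to vary. Strength and replicate support could vary only among regions that had passed the IDR threshold. The chromatin came from whole wandering larvae of Drosophila melanogaster in the third instar, with both sexes pooled, from a transgenic line with GFP fused to the C-terminus of ey. The labels name the reagent in different ways: the description gives an antibody against GFP and the antibody entry reads ey. There were 2 libraries, biological replicates numbered 1 and 3, in 1 group with no other condition, so no contrast between conditions could be made. Whole larvae mix all tissues, and a region bound in few cells cannot be told apart from one bound weakly in many.

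Eyeless is the fly counterpart of Pax6. It binds DNA through a paired domain and a homeodomain, starts the retinal gene network in the eye disc and also acts in the brain. Genes of that network and many other developmental regulators in flies are controlled by enhancers, stretches of open DNA that can lie far from the TSS, often several to a gene and in long gaps between genes. A ChIP-seq summit marks where the tagged factor's DNA was recovered most and does not show which gene, if any, it acts on.

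Most distal intergenic summits had a short core rich in A and T set in DNA richer in G and C. The sequences here show the 6 strongest summits on X, 3L and 3R, numbered by the authors' signal among the 632. Each is the 101 bases centred on the summit, followed by the window of equal width 300 bp to the left. All are on the forward strand of dm6, and capitals mark every stretch of 6 or more bases that holds only A and T. Summits 1 and 4 lie between CG4004 and Paics, summit 3 between CG7320 and CheA75a, summit 5 lies upstream of heca, summit 6 between Ids and sty, and summit 7 between hid and CG7320.
Distal summit 1, summit, chrX:12752319-12752419: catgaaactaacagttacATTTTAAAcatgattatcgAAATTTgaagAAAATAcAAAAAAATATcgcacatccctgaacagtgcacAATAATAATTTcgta
Distal summit 1, left flank, chrX:12752019-12752119: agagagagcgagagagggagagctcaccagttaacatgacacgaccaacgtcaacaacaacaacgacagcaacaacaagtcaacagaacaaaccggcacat
Distal summit 3, summit, chr3L:18235986-18236086: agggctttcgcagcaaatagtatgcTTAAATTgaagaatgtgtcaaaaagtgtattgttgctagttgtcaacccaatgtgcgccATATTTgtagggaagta
Distal summit 3, left flank, chr3L:18235686-18235786: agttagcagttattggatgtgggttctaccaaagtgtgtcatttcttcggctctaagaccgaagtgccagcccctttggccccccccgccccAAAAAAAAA
Distal summit 4, summit, chrX:12754488-12754588: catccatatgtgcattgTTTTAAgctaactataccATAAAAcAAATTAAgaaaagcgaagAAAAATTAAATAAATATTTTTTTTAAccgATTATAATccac
Distal summit 4, left flank, chrX:12754188-12754288: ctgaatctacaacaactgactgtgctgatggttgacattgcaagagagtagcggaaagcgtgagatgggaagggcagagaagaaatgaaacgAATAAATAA
Distal summit 5, summit, chr3R:30272687-30272787: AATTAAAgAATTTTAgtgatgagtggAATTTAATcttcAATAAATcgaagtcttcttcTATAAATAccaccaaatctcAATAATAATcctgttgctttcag
Distal summit 5, left flank, chr3R:30272387-30272487: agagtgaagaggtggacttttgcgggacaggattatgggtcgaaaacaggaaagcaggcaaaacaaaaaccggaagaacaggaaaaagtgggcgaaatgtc
Distal summit 6, summit, chr3L:3394925-3395025: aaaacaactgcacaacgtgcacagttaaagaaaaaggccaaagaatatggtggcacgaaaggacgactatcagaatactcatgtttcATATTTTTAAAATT
Distal summit 6, left flank, chr3L:3394625-3394725: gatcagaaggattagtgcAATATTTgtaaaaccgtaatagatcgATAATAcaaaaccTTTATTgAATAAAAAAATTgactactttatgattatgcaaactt
Distal summit 7, summit, chr3L:18195142-18195242: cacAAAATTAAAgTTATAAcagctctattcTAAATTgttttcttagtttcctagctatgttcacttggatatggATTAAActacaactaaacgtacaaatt
Distal summit 7, left flank, chr3L:18194842-18194942: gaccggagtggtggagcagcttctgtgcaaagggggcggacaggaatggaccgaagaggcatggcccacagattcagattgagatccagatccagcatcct
The GC content of the summit window was 27.7% for each of summits 1, 5 and 7, against 48.5%, 46.5% and 57.4% in their left flanks. At summit 3 it was 38.6%, against 50.5% to the left, and at summit 4 it was 23.8%, against 42.6%. Summit 6 went the other way on this side, with 34.7% at the summit and 25.7% in the left flank, while its right flank had 64.4%. Summits 8 and 9, next in strength and not printed, were nearly level with their left flanks, with 34.7% and 35.6% at the summit and 35.6% and 37.6% to the left. Their right flanks had 51.5% and 31.7%, so the right flank of summit 9 was poorer in G and C than the summit. The right flanks of summits 1, 3, 4, 5 and 7 had 48.5%, 56.4%, 32.7%, 56.4% and 55.4%.

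Over all distal intergenic summits the GC content fell to its lowest at the summit. It averaged 33.0% ± 7.47 (SD over 632 windows), against 47.2% in their own flanks, a difference of -14.2 percentage points (SD 11.03). The summit window was poorer in G and C than the flanks at 567 of 632 summits (89.7%). At the other 6203 optimal summits the windows averaged 34.6% at the summit and 44.5% in the flanks, a difference of -9.88 points, and 79.2% were poorer than their flanks. The difference was -11.3 points at intergenic summits nearer to a gene, -11.2 points inside protein-coding genes and -8.33 points at promoters, which are summits within 500 bp of a protein-coding TSS. Among the 5 position classes of the optimal list, distal summits had the lowest mean GC content at the summit. They also had the highest in the flanks 300 bp away, but not at 500 bp. In 25-bp windows 500 bp to the left and right, promoters had 45.7% and 45.2%, and distal summits 44.3% on each side. The differences of the other classes were not recomputed with flanks at 500 bp. Single distal windows ran from 17.8% to 68.3% GC. Regions are not replicates, so these spreads describe the windows and no test was made.

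**Figure D1:**
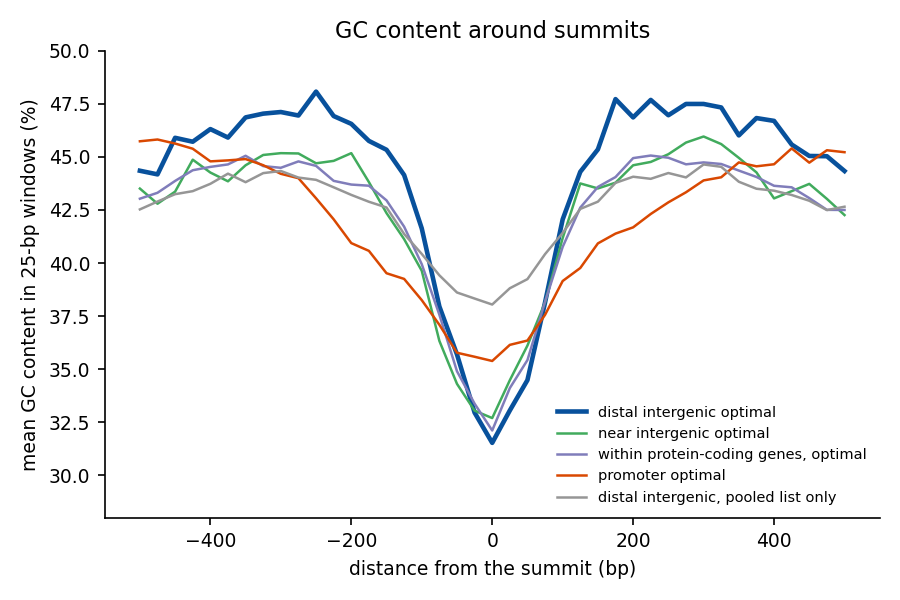
Mean GC content (%) in 25-bp windows against distance from the summit (bp). The lines are distal intergenic optimal summits (632), intergenic optimal summits nearer to a gene, those within protein-coding genes, those at promoters, and distal intergenic regions found in the pooled list only (2707). The authors name the pooled list as peaks and background. Distal optimal summits reach 31.5% at the centre, against 35.4% at promoters and 38.05% for the regions of the pooled list only, and rise to 48.1% at 250 bp to the left.

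Stretches of A and T followed the same course. Stretches of 6 or more such bases filled 25.6 ± 13.8 of the 101 bases at distal summits (SD, 632 windows), against 11.2 in their flanks. At other optimal summits they filled 24.4 bases, against 13.3 in the flanks. Only 4.11% of distal summits had no such stretch, compared with 7.17% of other optimal summits. Long runs of a single base were not the rule, since the longest run of A or of T had a median of 5 bases at distal summits and reached 8 or more at 60 of them.

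The fall in GC content was larger at stronger distal summits. It was -17.04 points over the 100 strongest (SD 8.38) and -12.3 points over the 100 weakest (SD 11.6). In the 2707 distal regions of the authors' pooled list that did not reach the optimal list it was -5.68 points, with 38.5% GC at the summit and 44.2% in the flanks. The authors name that list as peaks and background given as input to IDR, so these regions may include background. GC content can itself affect recovery and sequencing of DNA, and its part in these differences was not tested.

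Distal intergenic summits were of middling strength. The deposited signal is the authors' own strength value, with no stated scale, and depth cannot be read from the lists, so signals rank regions within a list only. Signals ran from 79.3 to 2125 with a median of 139. The median distal summit stood at percentile 45.3 of the optimal list (percentile 100 being the strongest), against 50.4 for the other optimal summits and 52.4 for promoters. With the list cut into 5 equal parts, the distal summits numbered 100, 123, 127, 146 and 136 from the strongest part to the weakest, or 7.32% to 10.7% of each. Only 2 were among the 100 strongest optimal summits and 30 among the 500 strongest.

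Those 2 stood apart from the rest in both libraries. Summit 1 (chrX:12752028-12752626) had a signal of 2125, rank 20 of the list, with 1126 in replicate 1 and 1031 in replicate 3. It lies in the noncoding gene lncRNA:CR44619, 502 bp from that gene's TSS and so just past the limit for noncoding TSSs, and 6052 bp downstream of the TSS of CG4004. Summit 4 (signal 998, rank 121) is in the same noncoding gene and summit 20 (signal 640, rank 337) in the same gap, which ends at Paics, a gene of purine synthesis. Summit 2 (chr2R:13035118-13035594) had a signal of 2121, rank 21, with 1214 in replicate 1 and 959 in replicate 3. It lies between Su(z)2, a Polycomb-group gene, and CG13323, 11935 bp from the TSS of CG13323. The next distal summit, summit 3, had a signal of 1031 (656 in replicate 1 and 405 in replicate 3), between CG7320 and CheA75a.

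The other strongest distal summits were spread over genes of varied function. Summit 5 (chr3R:30272516-30272913, signal 979) lies 5195 bp upstream of heca, which encodes Headcase, a regulator of imaginal cell proliferation, and is the strongest on arm 3R. Summit 6 (signal 955) lies between Ids, the gene of a lysosomal sulfatase, and sty, which encodes the receptor tyrosine kinase antagonist Sprouty. Summit 7 (signal 944) lies upstream of CG7320 in the gap that begins with hid, a cell death gene. Summit 8 (signal 865) is between hng3 and CG13898, and summit 9 (757) is nearest CG6163. Summit 10 (751) is nearest Obp56h, an odorant-binding protein gene. Tollo, which encodes a Toll-family receptor, is the gene nearest summit 11 (745), 25136 bp away. Signals of 718, 714 and 709 belonged to summits 12 to 14, nearest CG42693, Reg-2 and ppk, a sodium channel gene. Summit 14 was the strongest on arm 2L. Summits 15 and 16 (681 and 656) both lie in lncRNA:CR45054 between Alp13 and Fmr1, the fly homologue of the fragile X gene. Summits 17 to 19 were nearest Ote (653), Or67d (650) and CG43245 (644). The single distal summit on chromosome 4 had a signal of 181 and lies 19089 bp downstream of the TSS of lgs, a Wnt pathway gene.

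Both libraries held nearly all distal intergenic summits. Of the 632 regions, 620 overlapped a called region of replicate 1 and 631 one of replicate 3, at 1 bp or more, and 619 overlapped both. The replicate lists are long, with 30000 regions for replicate 1 and 27637 for replicate 3 on the main arms. Against the 6835 strongest regions of each replicate, 502 distal regions (79.4%, 95% exact interval 76.1 to 82.5) were found in both, 70 in replicate 1 alone, 56 in replicate 3 alone and 4 in neither. Among other optimal regions the share in both was 80.2% (79.1 to 81.1), which lies inside the interval for distal regions. Intervals are Clopper-Pearson and cover counting error over regions only. The optimal list was made from both replicates, so a high share was built in, both for the whole lists and for the strongest regions.

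Strength and support are not independent, since the signal of the optimal list comes from both libraries together. Of the 100 strongest distal regions 99 were among the strongest of both replicates, and of the 100 weakest 24 were. The signals in the 2 libraries ran together across the 619 regions present in both, with a Spearman rho of 0.765 and a Pearson r of log2 signals of 0.820. Other optimal regions gave 0.785 and 0.832. These are correlations over regions of 1 pair of libraries and carry no p-value. Relative to the other optimal regions, distal ones ranked lower in replicate 3, with a median rank of 3908 against 3069, than in replicate 1, where the median rank was 3166 against 3173. A list cut from replicate 3 alone therefore held fewer distal summits (601) than one of equal length from replicate 1 alone (661).

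**Figure D2:**
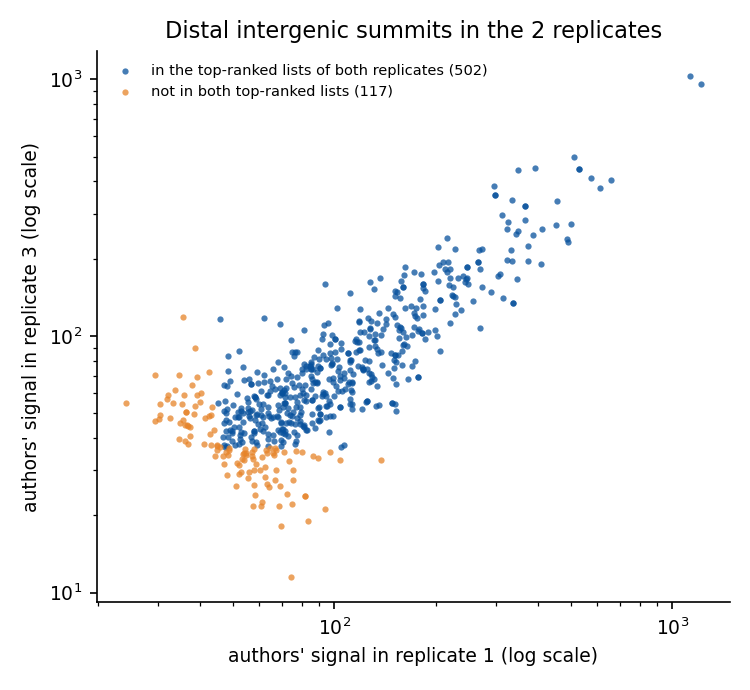
Authors' signal of each distal intergenic region in replicate 3 against replicate 1, both on log scales, for the 619 regions overlapped in both. Blue points (502) were among the 6835 strongest regions of both replicates and orange points (117) were not. The 2 points at the upper right, over 1000 in replicate 1, are summits 1 and 2.

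Distal intergenic DNA held fewer summits for its length than the rest of the genome. The rule selects 25.2 Mb of 133.9 Mb (18.9%). Distal summits numbered 25.04 per Mb of that sequence (exact Poisson interval 23.1 to 27.1), against 57.1 other optimal summits per Mb elsewhere, a ratio of 0.439. Soft-masked repeats make up 29.6% of distal sequence, and per Mb of unmasked distal sequence the number was 33.3. The placing of reads in repeats is not described, and its part was not tested.

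Density fell with distance from genes, while the median signal stayed between 137 and 142 up to 40 kb. Between 5 and 10 kb from the nearest protein-coding TSS there were 288 distal summits, 39.0 per Mb. From 10 to 20 kb there were 239, or 34.2 per Mb, from 20 to 40 kb 92, or 21.3 per Mb, and from 40 to 100 kb 13, or 3.76 per Mb (2.002 to 6.43). The 3.09 Mb beyond 100 kb held 0, which allows up to 1.195 per Mb. Soft-masking covers 22.3%, 24.0%, 29.7% and 40.5% of the 4 filled ranges, and per unmasked Mb the densities were 47.7, 41.1, 29.3 and 5.35. Median signals were 139, 142, 137 and 112 in that order, and GC differences ran between -14.1 and -15.0 points. The median distance was 10804.5 bp, and the farthest summit (signal 88.3, rank 6110) lies 61882 bp upstream of CG12362.

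The 5000 bp limit does not fall at a break in the data. Just inside it were summits near CG44362 (5011 bp, signal 92.0), Tollo (5040 bp, 174), hid (5043 bp, 560), CG11374 (5101 bp, 83.3) and Paics (5114 bp, 184). Just outside were intergenic summits near rpr (4941 bp, signal 83.7), Gr93b (4954 bp, 274), CG13300 (4975 bp, 105), CG14147 (4983 bp, 247) and CG13481 (4986 bp, 218).

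The arms differed in distal density. There were 211 distal summits on 3L, 141 on 2L, 138 on 3R, 76 on 2R, 65 on X and 1 on chromosome 4. Per Mb of distal sequence this was 31.6 on 3L, 32.3 on 2L and 28.8 on 3R, against 14.6 on 2R (interval 11.5 to 18.2) and 16.2 on X (12.5 to 20.7). Within 5 to 40 kb of a TSS, which leaves out the most remote sequence, 2R held 22.7 per Mb (17.9 to 28.4) and X 22.9 per Mb (17.7 to 29.2), still below 43.8 on 3L, 35.8 on 2L and 34.8 on 3R. The low values on X and 2R were not shared by the other optimal summits. Of these there were 62.3 per Mb on X and 55.6 per Mb on 2R. On the arms of chromosomes 2 and 3 together, 2R among them, there were 56.5 per Mb. The X to autosome ratio for distal summits was 0.604, and 0.545 and 0.694 in the lists of replicates 1 and 3 alone. The libraries came from mixed sexes, and males carry a single X, whose part in this ratio was not tested.

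**Figure D3:**
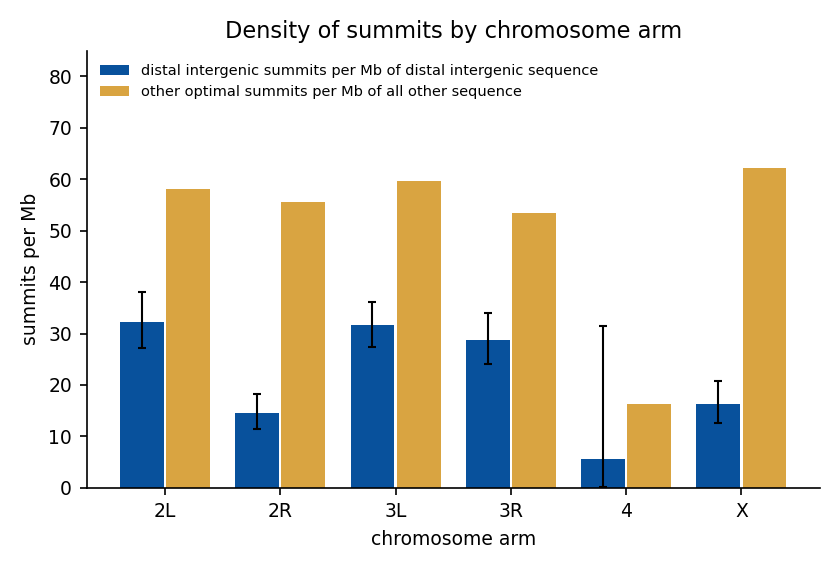
Summits per Mb on each chromosome arm, with distal intergenic optimal summits per Mb of distal intergenic sequence in blue, left, and other optimal summits per Mb of all other sequence in yellow, right. Error bars are 95% exact Poisson intervals of the distal counts and cover counting error only. On 2R and X the distal bars (14.6 and 16.2) are lower than on 2L, 3L and 3R (28.8 to 32.3).

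Distal intergenic summits lay in a minority of gaps between genes. Of 1452 gaps that hold sequence the rule selects, 247 (17.01%) held a distal summit. There were 114 gaps with a single distal summit and 133 with more, and the 133 held 518 summits (82.0%). The 37 gaps with 5 or more held 258 (40.8%). Gaps with a distal summit were longer, with a median of 26.9 kb against 14.7 kb over all 1452. A longer gap has more sequence in which a summit can fall. Distal sequence in gaps with a summit ran from 0.52 to 118 kb. The counts were not compared with those expected from length, so they do not by themselves show clustering. The median distance from a distal summit to the next optimal summit was 2328.5 bp, and 172 (27.2%) had another within 1000 bp. Some of these share DNA, since 12 distal summits share their region's coordinates with another.

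The gap with the most distal summits, 14 with signals from 88.1 to 865, lies between hng3 and CG13898 on 3L and is 47.9 kb long. Of the 14, 13 were among the strongest regions of both replicates. Its strongest, summit 8, had a signal of 393 in replicate 1 and 452 in replicate 3. Gaps close by were also well filled, since CG13898 to Sf3b3 held 7 and CG13896 to hng3 held 6. From CG13896 to Sf3b3 (chr3L:710820-833385) there were 27 distal summits in 123 kb, which is 12.8% of those on the arm, and 45 optimal summits in all. This stretch was singled out after its values were seen.

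Other well filled gaps differed in length and strength. The longest gap with a distal summit, 138 kb between Or67d, the receptor gene for a male pheromone, and CG12362, held 12, but only 7 were among the strongest regions of both replicates, and 9 had signals under 135. The 21.1 kb between Ids and sty held 10, more for its length than any other gap drawn in the plot of summits by gap. The 10 between NijA and CG43245 reached a signal of 644. The gap from CG7320 to CheA75a held 9, of signals 85.8 to 1031, all among the strongest of both replicates. Between CG18404 and heca there were 8 in 23.8 kb, with a highest signal of 979. On X, 7 each lay between mab-21, a conserved developmental gene, and rux, a cell cycle inhibitor acting in the eye disc, and between CG12680 and ovo, the zinc-finger gene that shapes germline and epidermis.

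**Figure D4:**
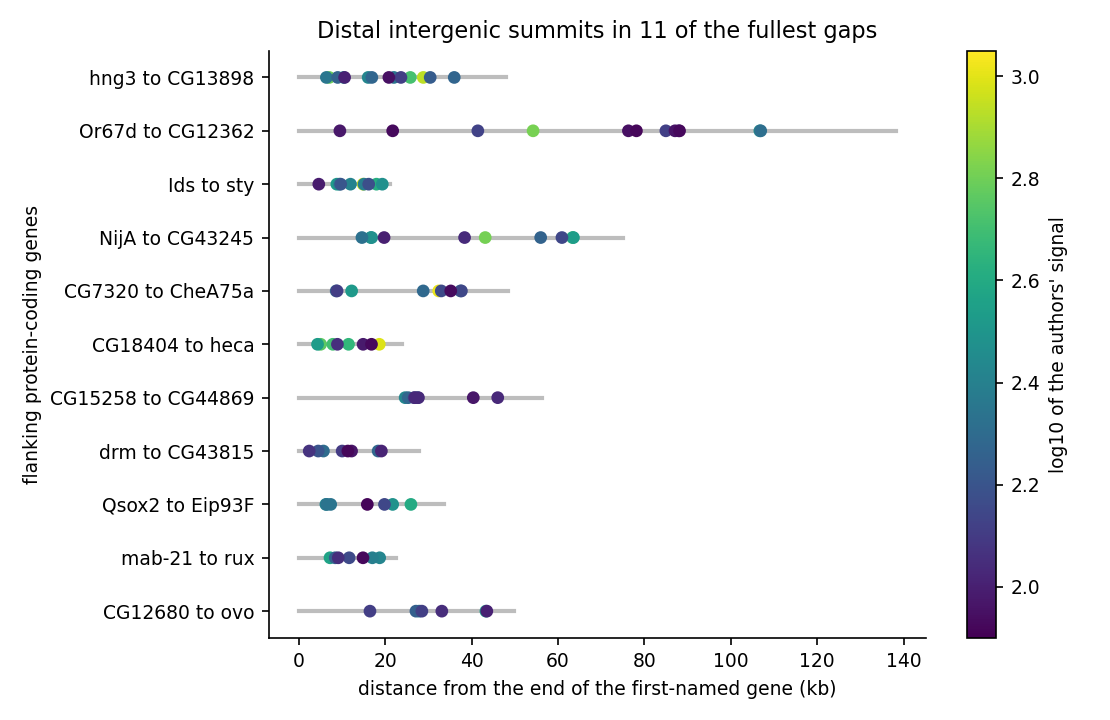
Positions of distal intergenic summits in 11 of the 12 gaps between protein-coding genes that hold most of them, as distance (kb) from the end of the first-named gene. Grey lines span each gap and point colour gives the log10 of the authors' signal. The gap from hng3 to CG13898 holds 14 within 47.9 kb and that from Or67d to CG12362 12 within 138 kb.

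The genes nearest distal intergenic summits included many transcription factor genes of development. Of the 632, 93 (14.7%, exact interval 12.04 to 17.7) had their nearest protein-coding TSS at 1 of 47 genes of a list of 232 such genes. The list makes up 1.66% of protein-coding genes but is nearest to 6.72% of the distal sequence, since these genes stand next to long gaps. Among the distal regions of the pooled list only, the share was 14.6%, which lies inside that interval. It was 7.99% for summits within protein-coding genes, 4.81% for intergenic summits nearer to a gene and 1.65% for promoters. The summits near listed genes were not stronger than the rest, with a median signal of 139.

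The 10 strongest of these stood at 9 genes. The zinc-finger gene noc had a signal of 401 (217 in replicate 1 and 193 in replicate 3), and 6 distal summits lay in the gap it borders with CG33648. The head homeobox gene ems followed with 372 (218 and 158). At Awh, a LIM-homeodomain gene, the signal was 339 (202 and 163). The summit near bab1, a gene of leg and ovary patterning, had 337 (162 and 185). That near the LIM-homeodomain gene tup had 320 (158 and 164). The pair-rule gene odd had 315 (180 and 140) and the T-box gene bi 295 (151 and 144). Eip93F and Antp complete the 9 and are described with their lists. All 10 were among the strongest regions of both replicates. More distal summits of lower signal stood near hry (hairy, 6, up to 287), H15 (5, up to 228), salr (5, up to 242) and vvl (4, up to 251). Between salr and salm, paired zinc-finger genes of wing and organ patterning, there were 6 in all, with signals from 99.1 to 242.

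Few distal intergenic summits stood next to genes of the retinal network, and none of these was strong. Of 14 network genes, 5 were nearest to 6 summits, and ey, toy, eya, so, dac, tio, ato, dan and danr were nearest to none. The Pax gene toe (twin of eyegone) had a summit 10099 bp upstream (chr3L:12442621-12442797) with a signal of 182, rank 2662, made up of 111 in replicate 1 and 73.8 in replicate 3. Its neighbour eyg, also a Pax gene, had 1 of signal 131, rank 4025 (71.3 and 57.8). The gene of the homeodomain cofactor Homothorax, hth, had 1 of 147, rank 3467 (74.3 and 70.0), 9429 bp upstream. At the Six-family gene Optix there was 1 of 134 (86.1 and 45.7). The zinc-finger gene tsh had a pair of signals 115 (76.6 and 38.03) and 114.5 (68.3 and 48.6), about 18 kb downstream of its TSS. All 6 were among the strongest regions of both replicates. Their share, 0.949% of distal summits against 0.274% of other optimal summits, rests on 6 regions. The list makes up 0.100% of protein-coding genes. The share of distal sequence nearest to these genes was not computed, so long gaps beside them are not allowed for.

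Hox genes, which set segment identity, gave 5 distal summits at 3 of 8 genes. That is 0.791% of distal summits, against 0.177% of other optimal summits, and rests on 5 regions. Hox genes make up 0.0574% of protein-coding genes, and the share of distal sequence nearest to them was not computed either. Antp had 1 of signal 335, rank 1110 (183 in replicate 1 and 153 in replicate 3), and the weakest distal summit of all (79.3). Dfd had a pair, of 176 (113 and 54.5) and 135 (58.9 and 72.1). The single one nearest Abd-B, of signal 87.2, overlapped no region of replicate 1.

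Genes of the ecdysone response, the steroid response that starts metamorphosis at this stage, gave 6 distal summits at 3 of 25 genes. Eip93F, an ecdysone-induced regulator, had 3 upstream, with signals of 396 (209 in replicate 1 and 194 in replicate 3), 306 (153 and 149) and 139 (76.0 and 63.1), in a gap that held 7. The cell death gene hid, which is also induced by ecdysone in dying larval tissue, had a pair upstream with signals of 560 (374 and 196) and 239 (165 and 67.9). Another cell death gene, rpr, had 1 of 157 (84.6 and 76.4). The stretch from hid to rpr (chr3L:18167745-18398435) held 18 distal summits in 231 kb, with a median signal of 164, and includes summits 3 and 7. Ecdysone genes were nearest to 0.949% of distal summits and to 1.14% of other optimal summits, and make up 0.179% of protein-coding genes. Their share of distal sequence was not computed.

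Not all well known regulatory gaps belong to these lists. Between dpp, which encodes a BMP ligand and has its imaginal disc enhancers downstream, and Slh there were 6 distal summits. Their signals were 84.9, 99.6, 347, 115, 107 and 379 from the dpp end. The 2 strong ones, of 347 (238 in replicate 1 and 126 in replicate 3) and 379 (212 and 183), lie nearer to Slh than to dpp.

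Short words made mainly of A and T were more frequent at distal intergenic summits than in their flanks, and the TATA-like word TATAAAA led the 30 motifs searched. Each was searched on both strands in the 101 bases at the summit and in the 2 flank windows. TATAAAA was found at 60 summits (9.49%), against a mean of 10.5 in the flanks, a ratio of 5.71. Other optimal summits held it almost as often (8.58%), with a ratio of 2.38, so the higher ratio came with flanks that held it less often. The distal ratio was 13.5 in the stronger part of the list (its upper 50%), 3.09 with windows of 100 bp to either side and 2.86 with flanks at 500 bp. TATAAAA was no more frequent in the stronger part, at 9.34% of its distal summits against 9.62% in the weaker part. The word is shown here at the 6 strongest distal summits on 3L and 3R that hold it, in capitals, with 12 bases to each side, to set side by side what surrounds it.
Distal summit 12, chr3R:31698329-31698359, forward strand: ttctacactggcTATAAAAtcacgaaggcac
Distal summit 27, chr3R:30259154-30259184, forward strand: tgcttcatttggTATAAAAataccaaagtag
Distal summit 39, chr3L:10760249-10760279, forward strand: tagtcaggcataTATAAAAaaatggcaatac
Distal summit 40, chr3R:30265620-30265650, reverse strand: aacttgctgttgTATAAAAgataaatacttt
Distal summit 45, chr3L:11380314-11380344, forward strand: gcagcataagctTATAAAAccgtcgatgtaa
Distal summit 65, chr3R:13921945-13921975, reverse strand: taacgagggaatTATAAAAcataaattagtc
Summits 27 and 40 are in the gap from CG18404 to heca, and summit 65 is the strongest near ems. The bases around the word differ from 1 summit to the next.

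Next among motifs held by 10 or more distal summits came the nuclear receptor core AGGTCA (17 summits against a flank mean of 5, ratio 3.40). At other optimal summits its ratio was 0.911. The shares of summits were closer, 2.69% of distal (exact interval 1.57 to 4.27) and 1.98% of other optimal summits. The core was less frequent in distal flanks, with a mean of 5 of 632 windows against 135 of 6203. Its ratio was 2.12 and 2.33 in the lists of replicates 1 and 3 alone and 1.31 with flanks at 500 bp. The repeat TATATATA (12 against 5) had a ratio of 2.40, but 3.25 with summits from replicate 1 alone and 1.27 with those from replicate 3 alone. The E-box CATATG (38 against 17) had 2.24, and the heat-shock element core GAANNTTC (19 against 10) had 1.9. In all, 7 motifs held by 10 or more distal summits had a ratio of at least 1.5.

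Among the same motifs, the lowest ratios belonged to the Sox word AACAATG (11 against 23.5, ratio 0.468), the E-box CAGCTG (11 against 22.5, 0.489) and the Meis/Hth word TGACAG (17 against 27, 0.630). With summits from replicate 1 alone the Sox ratio was 0.974, and from replicate 3 alone 0.718. The CAGCTG ratio was 0.536 and 0.490 likewise. Of the motifs held by fewer summits, the repeat CACACACA was at 3 summits against 26.5 in the flanks. With so few windows a single ratio moves readily, and the A and T content of the core moves with words made of A and T. Its part in their ratios was not tested. TAATTA, also all A and T, was at 46 summits against 31.5 in the flanks, a ratio of 1.46. Matches of TATAAAA, TATATATA and runs of A can overlap.

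Motifs of the Pax6 type were rare or little raised. The Pax6 paired-domain consensus, with 1 mismatch allowed, was found at 1 distal summit (0.158%) against a flank mean of 2, and at 0.226% of other optimal summits. The homeodomain words TAATTA and TAATTG were at 7.28% and 10.8% of distal summits, with ratios of 1.46 and 1.33. Their ratios at other optimal summits were 1.76 and 1.37. No match says only that these letters are not in the window.

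Of the words known from housekeeping promoters and insulators, some were scarcer at distal summits than at promoters. The DNA replication element TATCGATA was at 0 of 632 distal summits, where a count of 0 allows up to 0.582%, against 1.72% of other optimal summits and 3.67% of promoters. The insulator core CGATA was at 8.23% of distal summits and 15.3% of other optimal summits, but at 22.3% of promoters. Promoters are 2673 of the 6203 other optimal summits, and the shares at the rest of these were not computed. The scarcity is therefore shown against a set rich in promoters, not against other summits away from promoters. In the distal regions of the pooled list only, TATCGATA was at 0.332% and CGATA at 9.97%. The consensus of the insulator protein CTCF, with 2 mismatches allowed, was about alike at distal and other optimal summits, at 1.42% and 1.34%.

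**Figure D5:**
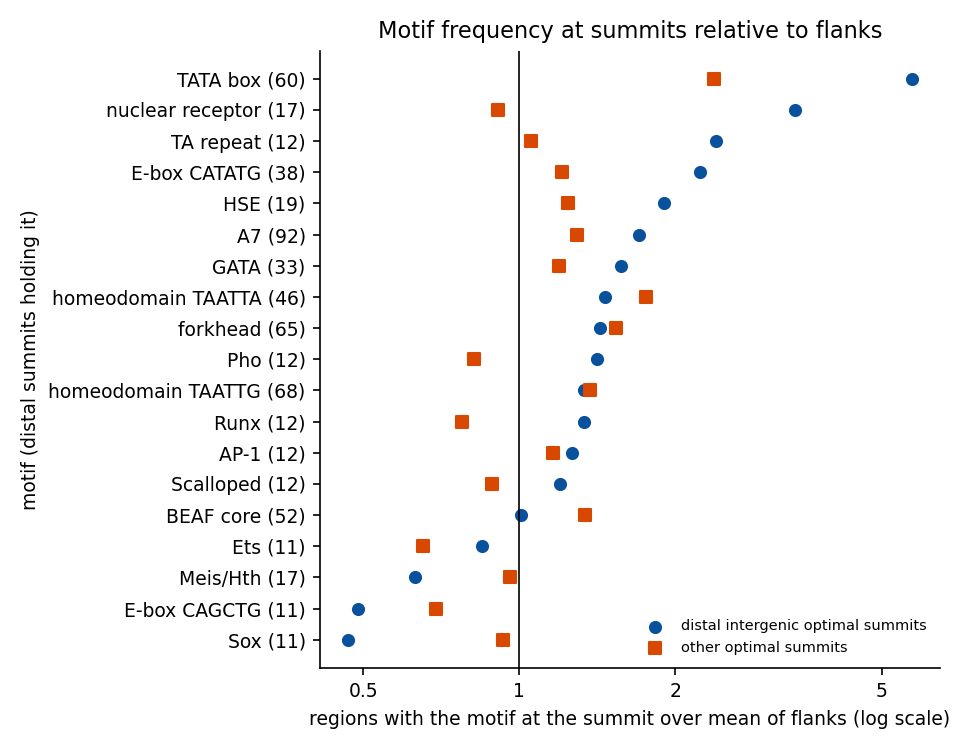
Ratio of regions with a motif at the summit to the mean number in the 2 flank windows (log scale), for motifs held by at least 10 distal intergenic summits, with the number of distal summits in brackets. Blue circles are distal intergenic optimal summits and orange squares other optimal summits. The ratio for the TATA box is 5.71 at distal (2.86 with flanks at 500 bp) and 2.38 at other summits, and for the nuclear receptor core 3.40 and 0.911. The shares of summits with the motif are closer, 9.49% and 8.58% for the TATA box and 2.69% and 1.98% for the nuclear receptor core.

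Counting every word of 6 letters gave a related set. Among words held by at least 20 distal summits, the 5 with the highest ratios were TACTAA (50 against 5), ATAGTA (45 against 5.5), TAGTAA (53 against 6.5), ATACTA (51 against 7) and CTACTA (23 against 3.5), which overlap as parts of a common pattern around TACTA. They were chosen by that ratio, so the ratio is no finding for distal summits. In the other optimal summits, which played no part in the choice, 17.6% held at least 1 of the 5, against 7.72% of their flanks, a ratio of 2.28. At distal summits 19.5% held 1 and 2.77% of flanks did. In the distal regions of the pooled list only, the shares were 13.04% and 6.89%. Taken singly, the 5 words had ratios of 2.06 to 2.73 at other optimal summits. Some other words of A and T had similar ratios there, such as ATATTA (2.77) and TTTAAA (2.69), while AAAAAA had 1.40. A ratio of this size was therefore not limited to the 5.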

How the data were processed

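ChIP-seq regions came from 2 libraries of 1 group. Per the labels, chromatin was sheared by sonication to a stated range of 200 to 800 bp. The authors deposited region lists in dm6: 1 for each replicate, 1 called on the pool and the optimal IDR-thresholded list. They name the pooled list as peaks and background given as input to IDR, and 30000 of its regions lay on the main arms. The aligner, the caller and the IDR threshold used are not named in the labels or lists. Control alignments and the lists in the older build were not used. Of the columns, 2 were used, both as deposited by the authors: the signal, a strength value with no stated scale, and the summit offset in bases from the region's start, another value with no further unit. Depth is unknown.

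Summits were placed at start plus offset and set against Ensembl release 115 models (BDGP 6.54) and the RefSeq sequence of Release 6, with soft-masking as supplied there. No region lay past an arm's end. Replicate support means an overlap of at least 1 bp with a replicate's 6835 strongest regions. GC content and motifs used windows of 50 bp to either side of the summit and flanks of equal width centred 300 bp away. Of 244 transcription factor symbols 12 did not match a gene name, and of 28 ecdysone symbols 3. Python 3.11.15, NumPy 2.4.6, pandas 2.3.3, SciPy 1.17.1 and matplotlib 3.10.9 were used. Position classes and motif counting were tested on simulated data.

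The design holds no contrast, so no hypothesis test was run. Alternatives changed the distance limit, the part of the list, the replicates, the overlap, the summit and TSS definitions, the window and the flanks. The rule, gene lists and motifs were chosen with earlier results of these data known. Named were the 20 strongest summits, the strongest per arm, the farthest, the 5 on either side of 5000 bp, the fullest gaps, summits nearest a retinal, Hox or ecdysone gene, the 10 strongest nearest a transcription factor gene, the 5 highest and 3 lowest motif ratios, the Pax6 words and the 5 leading words of 6 letters. The dpp gap, lncRNA genes, further transcription factor genes, other words and the stretches on 3L were added after values were seen, as were the A and T stretches, the sequences around TATAAAA and the densities by arm and distance. Of the fullest gaps, 1 is not reported here.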

Additional observations from a re-analysis of the deposited data

How the results depend on the processing

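In every setting run, the density ratio stayed below 1 and GC content stayed lower at the summit than in the flanks. Counts, shares and percentiles have no direction that could reverse. Some motif ratios above 1 fell below it in lists from 1 replicate. The Pho motif fell from 1.41 to 0.783 (replicate 1) and 0.8 (replicate 3). The Scalloped motif fell from 1.2 to 0.8 and 0.87 likewise. AP-1 (1.26) and Runx (1.33) fell below 1 in replicate 3 only, to 0.667 and 0.941. The number of distal intergenic summits was 344 at a limit of 10000 bp and 289 in the stronger part of the optimal list (its upper 50%), both by construction. The density ratio was 0.344 and 0.398 under the same changes. In lists from 1 replicate alone, 79.6% to 81.7% of distal regions were among the strongest of the other replicate. Overlap with their own list was certain, so this is not the same measure as the share in both replicates. The share in both was 99.0% in the stronger part and 60.9% when 50% of both lengths had to overlap. The GC difference was -13.9 to -13.5 points in lists from 1 replicate, -15.7 in the stronger part, -15.1 at region midpoints, -11.4 with windows of 100 bp to either side and -11.4 with flanks at 500 bp. The share nearest a transcription factor gene was 15.6% to 16.3% in lists from 1 replicate, 12.8% at 3000 bp and 17.2% at 10000 bp. The median percentile (41.5 to 48.6) and the number of raised motifs (6 to 8) held in every setting run. Single motif ratios moved more: that of TATAAAA ran from 2.86 to 13.5 and that of AGGTCA from 1.31 to 5.33. Where a cause is not given, it was not tested. Depth is unknown, only 2 libraries exist, and regions are not replicates.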

Other observations

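Noncoding genes held a larger share of distal intergenic summits than of distal sequence. In all, 74 (11.7%, exact interval 9.31 to 14.5) lay inside a noncoding gene, which covers 5.63% of the sequence the rule selects. The interval covers counting error over regions only. It treats summits in the same gene as separate, so it is no test of an excess. The share was 8.39% in the distal regions of the pooled list only. The noncoding genes with most were these: lncRNA:CR44833 near ovo held 8, lncRNA:CR46006 held 7, and lncRNA:CR32773 and lncRNA:let7C held 6 each. lncRNA:let7C is the host transcript of the let-7, miR-100 and miR-125 microRNAs, which act at metamorphosis. Its 6 summits had signals of 219, 95.8, 138, 85.3, 88.4 and 157 along the gene, and 2 of them, 138 and 85.3, fell on the same regions of the replicates. In the bithorax complex lncRNA:iab8 held 2 and lncRNA:bxd 1, ranked 6099 at best.

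No distal intergenic summit lay in an annotated transposable element. The count was 0 of 632, where a count of 0 allows up to 0.582%, while such elements cover 13.2% of the sequence the rule selects and 8.80% of its unmasked part. Other optimal summits were in one in 0.258% of cases. Soft-masked bases made up most of the window at 40 distal summits (6.33%). How reads that map to many places were treated is not described in the labels, and its part in this count was not tested. Distal summits were upstream of their nearest TSS in 51.4% of cases, close to 53.6% of the distal sequence.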
